A study of Sus scrofa with 9 samples.

Results

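The miRNAs described here are those of the early embryo: miR-371, miR-372 and miR-373, their rodent relatives miR-290 to miR-295, and the cluster of miR-302 and miR-367. They were picked by name from a table of small RNAs in pig (Sus scrofa) gametes and embryos, whatever the species prefix, arm or sequence variant of the name. Of 1313 names in the table, 4 belonged to this set. They were ssc-miR-371-5p and eca-miR-371-3p_L-1, from the 5′ and 3′ arm of the miR-371 hairpin, and hsa-miR-302b-3p and cja-miR-302d-3p. The prefixes ssc, eca, hsa and cja stand for pig, horse, human and marmoset. No name (0) belonged to miR-367, miR-372, miR-373 or miR-290 to miR-295.

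The table covered 3 libraries each of MII oocytes, PN embryos and sperm, all without treatment and with no genotype given. MII oocytes, mature eggs arrested in the second meiotic division, came from follicles of Long White gilts over 8 months old collected at a slaughterhouse, were matured in vitro and were freed of cumulus cells, and their RNA came from large pools. PN embryos, 1-cell embryos with pronuclei, were made from such oocytes by in vitro fertilization with semen of Landrace boars of 2 to 3 years and were taken 18 h after its start. Sperm for RNA was purified fresh from Large White boars of the same ages, a breed other than that named for fertilization. These details come from the study's account of its longer RNAs, and the small RNA libraries are taken here to come from the same material. Nothing in the labels says whether libraries of a group came from separate pools of cells, so p-values measure only the spread between these libraries, which may be technical.

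miRNAs are short RNAs that guide Argonaute proteins to messenger RNAs, mainly through the seed at bases 2 to 8 of the miRNA, and lower the output of those messengers. In mammals the miR-371 to miR-373 cluster and that of miR-302 with miR-367 are known for their expression in pluripotent cells and early embryos. miR-302, miR-372 and miR-373 share a seed, that of miR-371-3p overlaps it, and so do the seeds of the widely expressed miR-17, miR-20, miR-93 and miR-106, whereas miR-371-5p has a different seed. Zygotic genome activation in the pig follows the PN stage, so most RNA in PN embryos is thought to be maternal.

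In the RefSeq annotation of Sscrofa11.1, the build named for these data, MIR371 lies on chromosome 6 at chr6:56427208-56427285 and spans 78 bases. It overlaps 0 protein-coding genes. The nearest protein-coding gene on the side of lower coordinates is NLRP12, which encodes a sensor protein of innate immunity and ends 2169 bases away. The nearest on the other side, LOC100626505, begins 22045 bases away. The deposited values give no sequences, so the reads behind each name were not examined.

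Levels are given in CPM, the count of a name divided by the library's total in the table and scaled to 1000000. MII oocyte libraries held between 289183 and 381674 counts, PN embryo libraries 422630 to 771001 and sperm libraries 1640492 to 2455102, so depth and group cannot be told apart. The table holds 0 values equal to 1, 74 whole values from 2 to 4 and 442 equal to 5, and a listed 0 is read here as up to 5 reads. This reporting floor equals 13.1 to 17.3 CPM in MII oocytes, 6.49 to 11.8 CPM in PN embryos and 2.04 to 3.05 CPM in sperm. Male germ cell miRNAs (miR-34b, miR-34c and miR-449, 11 names) summed to between 151500 and 153700 CPM in the sperm libraries, led by ssc-miR-34c, whereas MII oocytes had 2036 to 2099 CPM and PN embryos 2250 to 2455 CPM, so the sperm libraries carried the miRNAs of their label. No list of miRNAs that define the oocyte was used.

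ssc-miR-371-5p was an abundant miRNA of MII oocytes and PN embryos and was listed at 0 in sperm. It was at 1286, 1089 and 1172 CPM in MII oocyte libraries 1, 2 and 3, from 491, 326 and 339 reads. In PN embryo libraries 1, 2 and 3 it was at 1107, 1063 and 1241 CPM, from 468, 739 and 957 reads. The oocyte and embryo libraries overlapped, with both the lowest and the second highest of the 6 values in PN embryos. MII oocytes had a mean of 1183 ± 98.9 CPM and PN embryos one of 1137 ± 92.9 CPM (SD, n = 3 each), where counting error alone gives an SD of 60.7 and 43.8 CPM. By level it stood at rank 65 to 73 in the MII oocyte libraries and 73 to 81 in the PN embryo libraries, at between 0.106% and 0.129% of all counts.

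**Figure D1:**
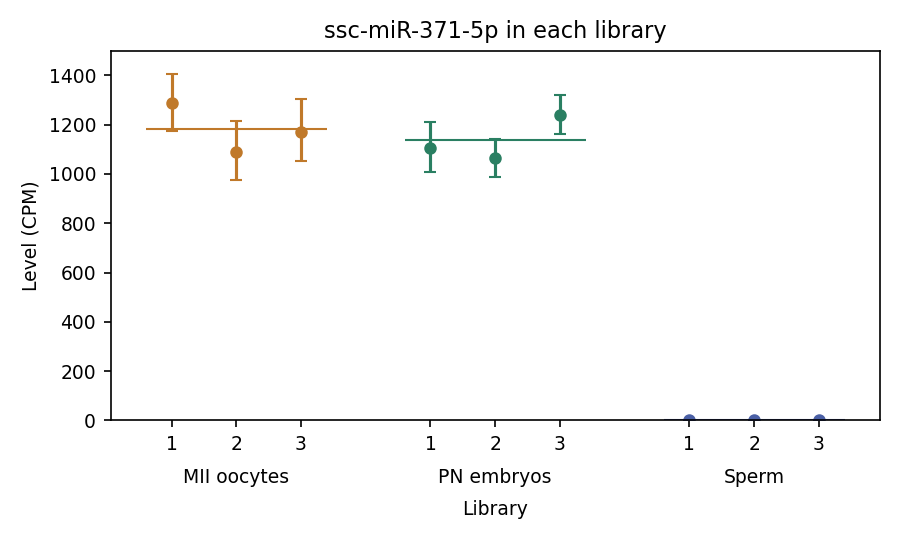
Level of ssc-miR-371-5p in CPM (linear axis) in each of the 9 libraries, with 95% exact Poisson intervals that cover counting error only, and the group mean as a line. The oocyte values (1089 to 1286 CPM) and the embryo values (1063 to 1241 CPM) overlap, and all 3 sperm libraries are at 0.

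PN embryos were compared with MII oocytes to ask whether fertilization and the hours after it changed the level of the set. Of the 4 members only ssc-miR-371-5p passed the filter on low counts, and it was not called, in a comparison where 12.9% of 587 names were (11.2% higher and 1.70% lower). The embryo libraries differed from the oocyte libraries by a log2 fold change of -0.13 ± 0.09 (SE; edgeR quasi-likelihood test, Benjamini-Hochberg q = 0.411), with a 95% interval from -0.35 to 0.093. The estimate changed sign without MII oocyte library 1 (0.073, edgeR q = 0.933) and with variant names of one miRNA summed (0.074, edgeR q = 0.887), and was not called in either setting. A fall or rise of 1 on the log2 scale, the size needed for a call, lay outside the interval.

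Sperm was compared with both to ask on which side of fertilization the miRNAs were found. At the mean level of MII oocytes, the 3 sperm libraries would have held 1940, 2050 and 2904 reads of ssc-miR-371-5p, and all listed 0. Against the reporting floor it was at least 445-fold higher in MII oocytes and at least 428-fold higher in PN embryos than in sperm. These bounds were not tested. With the sperm values kept at 0, it was called lower in sperm than in MII oocytes and PN embryos (edgeR q = 4.08e-10 and 3.73e-10). The other 3 members were also listed at 0 in every sperm library. A lower level in sperm was common, called for 40.7% of names against MII oocytes and for 47.4% against PN embryos, and a higher one for 42.2% and 38.8%. Libraries that do not overlap, as those of ssc-miR-371-5p, were found for 81.6% and 92.2% of names. Listing in all 6 oocyte and embryo libraries and in 0 sperm libraries was less common, with 80 names or 6.09% of the table, of which 15 had the pig prefix. Among those 80 names ssc-miR-371-5p had the third highest level and the highest of the pig names.

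The other 3 members were found in PN embryos at low levels and were listed at 0 in every MII oocyte library. eca-miR-371-3p_L-1, the other arm of the miR-371 hairpin, had 11, 17 and 7 reads in PN embryo libraries 1, 2 and 3, at 26.0, 24.5 and 9.08 CPM. hsa-miR-302b-3p, of the miR-302 cluster, had 15, 6 and 13 reads, at 35.5, 8.63 and 16.9 CPM. cja-miR-302d-3p, from the same cluster, had 7 reads in PN embryo library 2 and none listed in libraries 1 and 3 (0 reads each). The order of the PN embryo libraries thus differed between names, with library 3 lowest for miR-371-3p and library 2 for miR-302b.

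**Figure D2:**
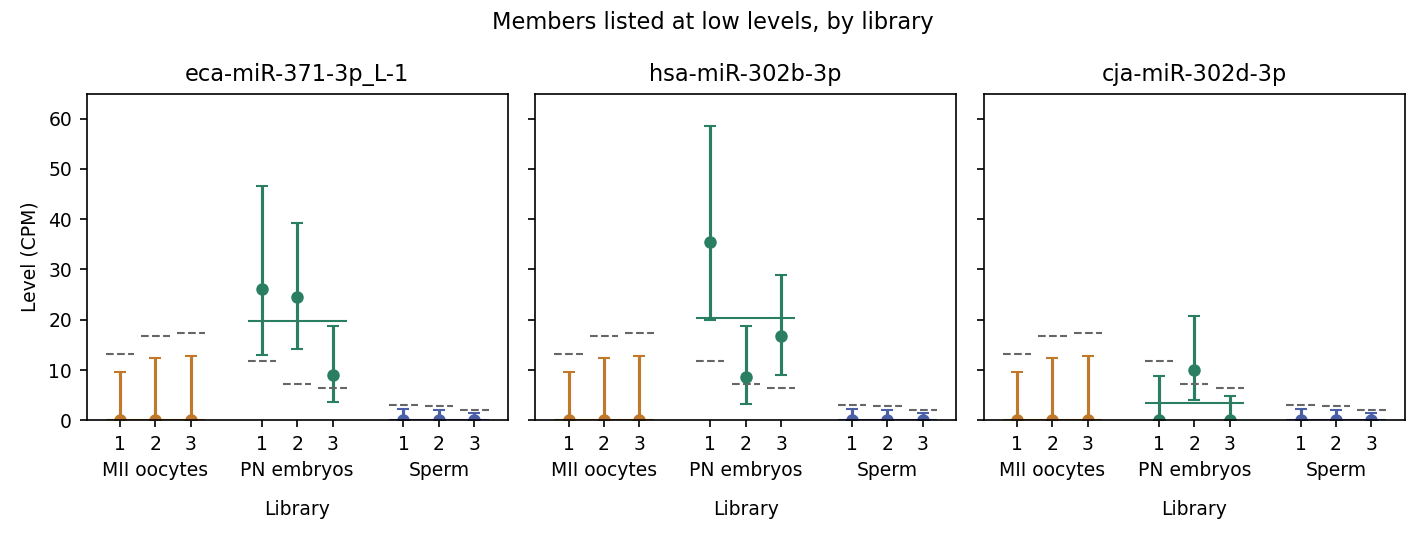
Levels in CPM (linear axis) of eca-miR-371-3p_L-1, hsa-miR-302b-3p and cja-miR-302d-3p in each library, with 95% exact Poisson intervals and the group mean as a line. Dashed marks show the reporting floor of 5 reads, which lies between 13.1 and 17.3 CPM in MII oocytes, above or within the range of the PN embryo values.

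The mean of eca-miR-371-3p_L-1 in PN embryos was 19.9 ± 9.36 CPM and that of hsa-miR-302b-3p 20.3 ± 13.8 CPM (SD, n = 3), against counting SDs of 6.02 and 6.28 CPM. The groups do not overlap as listed for either name, as for 39.5% of the 587 names that passed the filter. The depth of the oocyte libraries sets how far this can be read. At its mean PN embryo level, eca-miR-371-3p_L-1 would have had 7.58, 5.94 and 5.74 reads in MII oocyte libraries 1, 2 and 3, and hsa-miR-302b-3p 7.76, 6.08 and 5.88, all close to the floor of 5 reads. Against that floor they were at least 1.26-fold and 1.29-fold higher in PN embryos.

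Neither name passed the filter. With no filter both were called higher in PN embryos (edgeR q = 0.0139 for eca-miR-371-3p_L-1 and 0.0171 for hsa-miR-302b-3p), where 7.01% of 1313 names were called. With each listed 0 of the members set to 5 reads, a setting chosen after the data were seen, neither was called. The log2 fold changes were then 0.24 ± 0.54 and 0.26 ± 0.58 (SE; edgeR q = 1 for both). That setting holds the folds near the bounds above before any test, so it shows only that the calls depend on how a listed 0 is read. Against sperm, whose deeper libraries put the floor lower, eca-miR-371-3p_L-1 was at least 7.47-fold and hsa-miR-302b-3p at least 7.65-fold higher in PN embryos. Both were called lower in sperm with no filter (edgeR q = 2.93e-04 and 4.09e-04), where 57.2% of names were called in either direction. Listed at 0 in every sperm library, both names could be called only as lower there. Against MII oocytes, where 49.8% of names were called in sperm with no filter, the call for ssc-miR-371-5p was the only 1 among the 4 members. The other members were listed at 0 in every library of both groups, so they could not be called there.

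Presence in all PN embryo libraries and in no other library was found for 29 names or 2.21% of the table, of which 1 had the pig prefix and 9 the prefix PC, whose meaning was not stated. The mirror pattern, all MII oocyte libraries and no other, was found for 1 name. The PN embryo libraries were deeper than those of MII oocytes, and the part of depth in these patterns was not tested. The median level of the 29 names in PN embryos was 15.5 CPM. hsa-miR-302b-3p ranked 11 and eca-miR-371-3p_L-1 ranked 12 by level among the 29, so the pair stood in the middle of these names. cja-miR-302d-3p had the same counts in every library as 9 other names, and shared reads and chance equality cannot be told apart at 7 reads. The counts of the other 3 members matched those of no other name.

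Marker lists of other cell types were summed in the same groups. The blood list (miR-451, miR-486, miR-142, miR-144 and miR-223, 7 names) summed to between 166 and 314 CPM in MII oocytes and between 837 and 876 CPM in PN embryos, and to between 259 and 369 CPM in sperm. Its main name, ssc-miR-451_R-1, was higher in PN embryos than in MII oocytes (log2 fold change 2.24 ± 0.31 SE, edgeR q = 4.78e-04). Among the other blood names tested, ssc-miR-144_R+1 was also called higher (2.92, edgeR q = 0.0285). Not called were ocu-miR-144-5p (2.09, edgeR q = 0.0805), ssc-miR-486 (0.48, edgeR q = 0.0955) and ssc-miR-142-5p_L+2R-2 (-0.06). The summed level was thus higher in every PN embryo library than in any MII oocyte library, although only some of the names were called. In MII oocytes 5 of the 7 blood names were listed and in PN embryos 7, with ssc-miR-223_R+2 and cfa-miR-486-3p_L-1R+1, named after their values were seen, at 0 in every oocyte library. In PN embryos ssc-miR-223_R+2 was at 15.5 ± 7.96 CPM (SD, n = 3), and cfa-miR-486-3p_L-1R+1 was listed in 1 library only, at 11.8 CPM. The oocyte floor is 13.1 to 17.3 CPM, so for these names absence and low depth cannot be told apart. The muscle list (miR-1, miR-133a and miR-206, 3 names) went the other way, from between 96.8 and 246 CPM in MII oocytes, led by ssc-miR-1_R+1, to 0 listed in PN embryos. In sperm it summed to between 12.6 and 17.1 CPM, led by ssc-miR-206. Cumulus and granulosa names (6 names, led by ssc-miR-202-5p in oocytes and embryos and by cfa-miR-383 in sperm) summed to between 851 and 1360 CPM in the oocyte, 1074 and 1172 CPM in the embryo and 703 and 772 CPM in the sperm libraries. The part of these cells in the levels of the members was not tested. In such pooled samples, fewer cells of a type and less RNA per cell cannot be told apart.

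The arms of miR-371 differed in level by more than 40-fold where both were listed. The ratio of 5p to 3p reads was 42.5, 43.5 and 137 in PN embryo libraries 1, 2 and 3. The 3p name thus held 2.30%, 2.25% and 0.726% of the miR-371 reads there, with 95% exact binomial intervals of 1.15% to 4.07%, 1.31% to 3.58% and 0.292% to 1.49%. In MII oocytes it held 0 of 491, 0 of 326 and 0 of 339 reads, where 5 reads would have been 1.01%, 1.51% and 1.45%. The mean share was 1.76 ± 0.893% in PN embryos (SD, n = 3) and 0% as listed in MII oocytes (difference of 1.76 percentage points, two-sided exact permutation p = 0.1, the smallest that 3 libraries against 3 allow). With MII oocytes set at the floor the difference was 0.433 percentage points (exact permutation p = 0.4). The oocyte shares in that setting were fixed by the assumed 5 reads. Its p therefore shows only that the result depends on how a listed 0 is read. Libraries 1 and 2 of the PN embryos lay above all 3 oocyte floors and library 3 below them. Beside 100 reads of ssc-miR-371-5p, the PN embryo libraries held 3.21, 0.812 and 1.36 reads of hsa-miR-302b-3p.

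The profile of ssc-miR-371-5p over the 9 libraries was then set beside those of 220 other names with a mean of at least 100 CPM over oocytes and embryos. Likeness was the root mean square difference in log2(CPM + 1) after each name's mean was subtracted. The closest names were ssc-miR-6782-3p_R+1 at 0.162, eca-miR-1261_L+4_1ss5GC at 0.187, ssc-miR-7857-3p at 0.363, PC-5p-4084_1104 at 0.416 and ssc-miR-105-1_R+3 at 0.417, against a median of 4.21 over the 220 names. All 5 were listed at 0 in sperm, but the measure included the sperm libraries, so this follows largely from how the names were chosen. ssc-miR-6782-3p_R+1 was at 1147 ± 62.6 CPM before fertilization and 912 ± 41.1 CPM after it (SD, n = 3; log2 fold change -0.40 ± 0.09 SE, edgeR q = 0.0101). eca-miR-1261_L+4_1ss5GC was at 1544 ± 51.4 and 1223 ± 14.4 CPM (SD, n = 3; log2 fold change -0.41 ± 0.07 SE, edgeR q = 0.0039). Both changes were smaller than the fold change needed for a call, and the other 3 had q of 0.222, 0.440 and 1. Whether their changes differed from that of ssc-miR-371-5p was not tested.

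**Figure D3:**
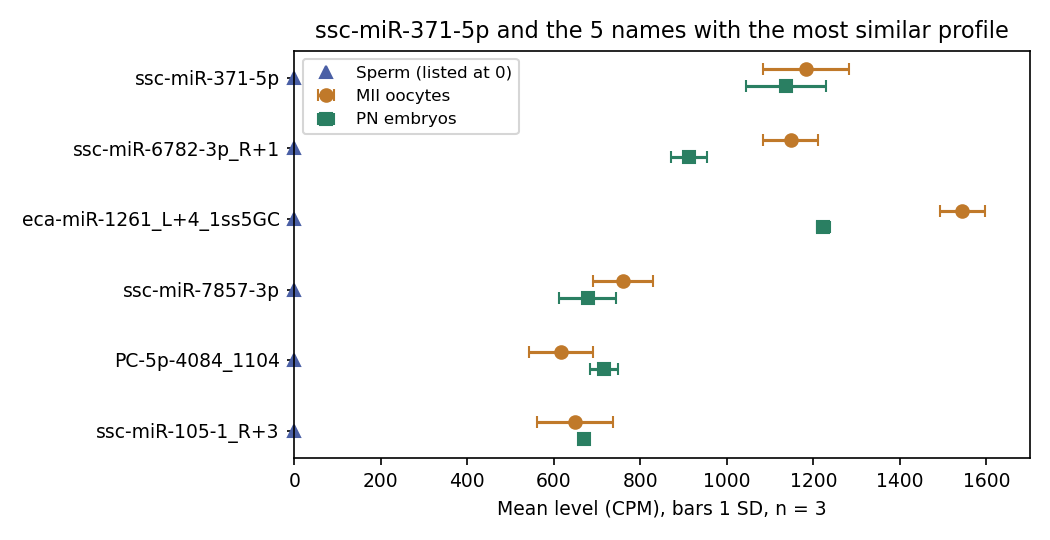
Mean level in CPM (linear axis, bars 1 SD, n = 3) of ssc-miR-371-5p and the 5 names with the most similar profile, in MII oocytes (circles) and PN embryos (squares), with sperm (triangles) at 0 for all 6. ssc-miR-371-5p is at 1183 CPM in oocytes and 1137 CPM in embryos.

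The miR-17 family, whose 5′ arm seed overlaps that of miR-302, miR-372 and miR-373, was present where miR-302 was near or under the floor. All 10 names of the seed list came from miR-17, miR-20, miR-93 and miR-106. The list was drawn by name, so 4 of them (ssc-miR-17-3p_R-2, ssc-miR-20a-3p_L-1, ocu-miR-106b-3p and ocu-miR-93-3p) come from the other arm of the hairpin, which does not carry that seed. MII oocytes had a summed level of 13660 ± 438 CPM for these names, PN embryos 12010 ± 287 CPM and sperm 16650 ± 956 CPM (SD, n = 3 each). The sums of the 4 members were 1183 ± 98.9, 1181 ± 81.2 and 0 CPM in the same order. Sperm thus held these relatives while listing 0 reads of any member. The sums count some reads more than once, because ssc-miR-17-5p and ssc-miR-106a_R-1_1ss1AC carried the same counts in every library.

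Between PN embryos and MII oocytes 0 of the 9 family names tested were called by edgeR, and DESeq2 also called 0. Their median log2 fold change was -0.19 beside 0.083 over all names. At q under 0.05 alone 2 were lower, ssc-miR-20a-5p_R+1 and cfa-miR-93, both under the fold needed for a call. cfa-miR-93 had a log2 fold change of -0.39 ± 0.07 (SE, edgeR q = 0.0025), and without MII oocyte library 1 it was -0.28 (edgeR q = 0.234). ssc-miR-20a-5p_R+1, the family's most abundant name in oocytes, had 4312 ± 559 CPM there, PN embryos had 3269 ± 44.6 CPM of it and sperm 4260 ± 465 CPM (SD, n = 3). The log2 fold change between embryos and oocytes was -0.47 ± 0.09 (SE, edgeR q = 0.0031), smaller than the fold needed for a call, and without MII oocyte library 1 it was -0.24 (edgeR q = 0.299). ssc-miR-17-5p was at 3034 ± 28.1 and 3010 ± 44.9 CPM in oocytes and embryos (SD, n = 3).

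In sperm the names of the family went both ways, as did names over the whole table. Of 9 names tested, 5 were higher and 2 lower than in MII oocytes (3 and 2 of 8 with counts thinned to equal depth). Over all names 83.0% were called, 42.2% higher and 40.7% lower. The median log2 fold change was 1.26 beside 0 over all names. The counts were also 5 and 2 against PN embryos, where 86.2% of all names were called, 38.8% higher and 47.4% lower. The medians there were 1.65 for the list and -0.52 over all names. These medians moved with the depth and the filter. With counts thinned to equal depth the list was at 0.22 beside -0.66 over all names against MII oocytes, and at 0.88 beside -0.99 against PN embryos. With at least 10 counts required in 3 libraries the pairs were 1.36 beside 1.14 and 1.78 beside 0.67. The 2 lower names are ssc-miR-17-5p and ssc-miR-106a_R-1_1ss1AC, which hold the same counts. Of the 5 higher names, 2 (ocu-miR-106b-3p and ocu-miR-93-3p) come from the 3′ arm. Another, ssc-miR-20b, had a mean of 32.1 CPM in sperm, while embryos averaged 0.80 CPM and every oocyte library listed 0. It passed the filter on low counts through its sperm libraries alone, so it could be tested only as a name higher in sperm. The remaining higher names were cfa-miR-93 and cfa-miR-106b. cfa-miR-93 was higher in sperm, at 6366 ± 436 CPM against 2756 ± 134 CPM in MII oocytes (SD, n = 3; log2 fold change 1.26 ± 0.07 SE, edgeR q = 2.60e-08), and at 0.66 with thinned counts it was under the fold needed for a call. ssc-miR-17-5p was lower, at 1256 ± 116 CPM in sperm (SD, n = 3; log2 fold change against MII oocytes -1.22 ± 0.06 SE, edgeR q = 2.39e-08), a call lost without MII oocyte library 1 (log2 fold change -0.99). Against PN embryos its log2 fold change was -1.14 ± 0.06 (SE, edgeR q = 3.30e-08), a call lost under 9 of 19 alternatives, where it reached -0.92. ssc-miR-20a-5p_R+1 had a log2 fold change of 0.04 ± 0.09 (SE) between sperm and oocytes (edgeR q = 0.699), and it turned to -0.020 with library totals alone and to -0.54 with thinned counts.

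**Figure D4:**
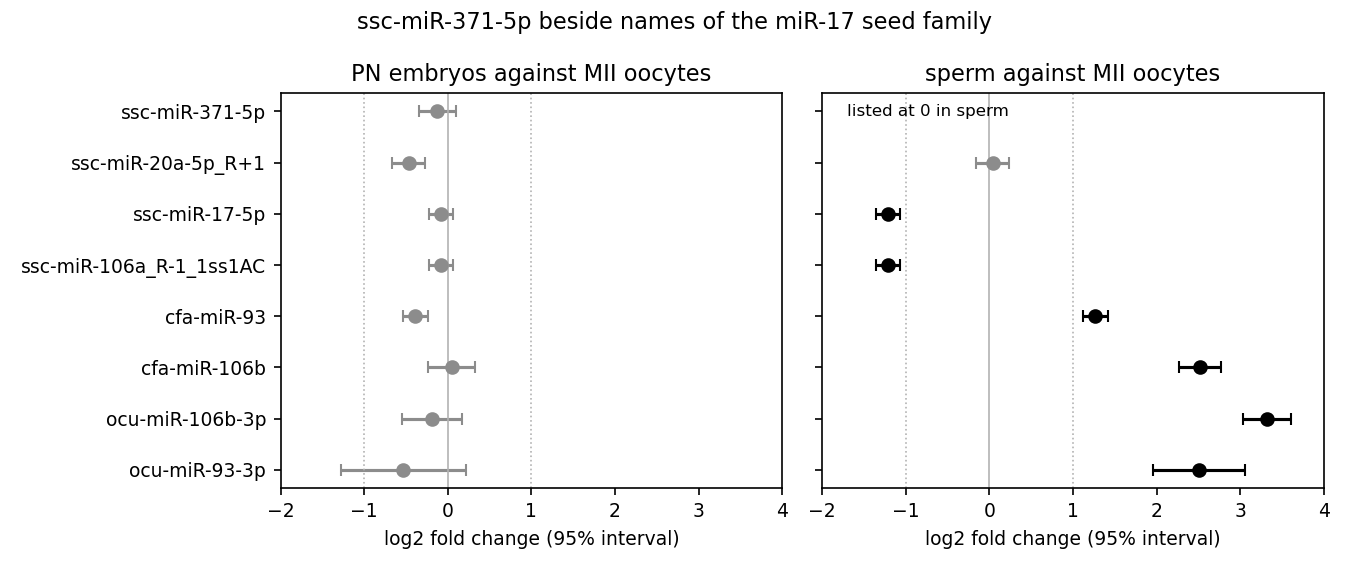
log2 fold change with 95% interval of ssc-miR-371-5p and 7 names of the miR-17 family in PN embryos (left) and sperm (right) against MII oocytes, with called names in black and others in grey. Dotted lines mark a log2 fold change of 1 in either direction, and ssc-miR-371-5p has no point on the right because sperm is at 0. The names ssc-miR-17-3p_R-2, ssc-miR-20a-3p_L-1 and ssc-miR-20b, all low or at 0 in oocytes, are left out. The choice was not by level alone: ocu-miR-93-3p (25.8 CPM in oocytes) is drawn and ssc-miR-17-3p_R-2 (27.7 CPM, called in neither comparison) is not.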

How the data were processed

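Small RNA libraries of MII oocytes, PN embryos and sperm (3 each) were analysed from a single deposited table. The authors ligated adapters to small RNA, reverse transcribed, amplified and size-selected it, and deposited estimated counts per miRNA name (1420 rows, 1313 names after rows of the same name were summed). Of the values above 0, 19.8% are not whole, and they were rounded for the tests. The build Sscrofa 11.1 is from the submitters' processing notes, and the aligner and the filter on low counts are not given in the sources used here. The suffixes of names (R+1, L-1, 1ss) are not explained there. No value equals 1 (0 of the table), so rare miRNAs can be listed at 0.

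Names were tested with edgeR 4.0.16 in R 4.3.3 (quasi-likelihood test, TMM, all 9 libraries in one fit, Benjamini-Hochberg over all names tested). filterByExpr (minimum count 10) kept 587 names and 99.8% of counts. A name was called at q under 0.05 with a log2 fold change of at least 1. DESeq2 1.42.0, other scalings, filters, depths and left-out libraries were alternatives. Poisson and Clopper-Pearson intervals (95%) and floors cover counting error only, since reads amplified by PCR are not independent molecules. On simulated counts for PN embryos against MII oocytes (364 names), the fit recovered 100% of changed names at a log2 fold change of 2. Only names with an expected count of at least 10 were changed, and the spread was fixed beforehand. The simulation therefore does not cover the members at low levels. Scripts used Python 3.11.15 with scipy 1.17.1.

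The members and lists were chosen with earlier results of these data known. Besides all members, the text names the 5 names closest in profile to the most abundant member, the 3 most abundant seed-list names in MII oocytes and the 2 in sperm, and the leading name of each marker list. Names given for their hairpin arm, shared counts or absence, and the further blood names, were picked after their values were seen. No mature sequence was used here.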

Additional observations from a re-analysis of the deposited data

How the results depend on the processing

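Across 19 alternatives per comparison, ssc-miR-371-5p was never called between PN embryos and MII oocytes (log2 fold change -0.20 to 0.074, q 0.173 to 0.934) and always called lower in sperm (q at most 2.30e-07 against MII oocytes and 2.02e-07 against PN embryos). Its PN embryo estimate turned to 0.074 with variant names summed and to 0.073 without MII oocyte library 1. The number of members called between PN embryos and MII oocytes rose from 0 to 2 with no filter and to between 0 and 1 when 1 library was left out (1 without any single sperm library). Between sperm and PN embryos it went from 1 to 3 with no filter or with only those groups fitted, and to between 1 and 3 without 1 library (3 without any single oocyte library, 2 without any single sperm library or PN embryo library 2 or 3). More members were tested in these settings, because more passed the filter or none was applied. The members so added were listed at 0 in every MII oocyte and sperm library, so they could be called only as higher in PN embryos. Over all names, 751 of 1313 were called between sperm and PN embryos with no filter. The counts were 558 of 637 with only those groups fitted and 563 of 657 without MII oocyte library 1. The seed list went from 0 to 2 names at q under 0.05 alone. With the most abundant name taken out of the totals, the members summed to 2247 CPM in MII oocytes (1183 before) and 2161 CPM in PN embryos (1181 before); without 1 library they summed to between 1131 and 1229 and between 1137 and 1218 CPM. ssc-miR-20a-5p_R+1 turned to -0.020 (library totals) and -0.54 (thinned) in sperm against MII oocytes, and to -0.017 (thinned) against PN embryos. ssc-miR-17-5p and ssc-miR-106a_R-1_1ss1AC lay between -0.10 and 0.052 in PN embryos without 1 library, the latter without MII oocyte library 1, and ssc-miR-17-5p to 0.12 with variant names summed. The cause of these reversals was not tested.

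Another scaling moved the median change over all names on the log2 scale in sperm against PN embryos from -0.52 to between -0.99 (thinned) and -0.31 (DESeq2). The same median was 0.67 with at least 10 counts in 3 libraries and -1.23 without sperm library 3. Deviations of libraries with the same number correlated between -0.21 and 0.028. They gave no sign that the numbers pair the samples, which with 3 libraries per group they cannot exclude. With the replicate block ssc-miR-371-5p was at -0.13 in PN embryos (q = 0.479), the members called stayed at 0, 1 and 1, and calls over all names went from 76 to 50 in PN embryos against MII oocytes. Depth limits the low members: at 289180 counts per library eca-miR-371-3p_L-1 kept 9, 7 and 2 reads in PN embryos and hsa-miR-302b-3p 9, 2 and 5.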
